A study of Mus musculus with 6 samples.

Results

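Zhx2 with its relatives Zhx1 and Zhx3, and 4 genes that Zhx2 is known to repress in liver (Afp, H19, Gpc3 and Lpl), were followed in livers of Balb/c and Balb/cBy mice. The members were given as a list and read from the deposited values through probe sets that the platform annotation assigns to 1 gene symbol alone. Where a gene had several such probe sets, the one with the brightest signal over the 6 arrays was taken. This gave a value for 6 of the 7 members, out of 22180 genes read the same way. H19 had none, because its probe set is listed under a further symbol as well. Liver RNA came from 3 Balb/c and 3 Balb/cBy males, 20 weeks old, each measured on 1 one-colour Affymetrix array. Both substrains had been fed, from 8 weeks of age and for 12 weeks, a diet with 58% of its energy from fat, and the labels name no transgene or engineered allele. In the Balb/cBy line Acads, which encodes an enzyme of short-chain fatty acid oxidation, is known to carry a deletion. The labels call the arrays biological replicates and do not give the supplier of either substrain.

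The Zhx proteins are zinc finger and homeobox factors of the nucleus that can pair with one another. In mouse liver Zhx2 takes part in the shutdown of fetal genes after birth. Mice of the J substrain of BALB/c carry a retroviral insertion in the first intron of Zhx2, have little of its full transcript in the liver, and keep Afp and H19 on into adult life. Balb/cBy mice are known to lack that insertion. The comparison therefore asks whether either group shows low Zhx2 together with high levels of the genes it represses.

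Neither group showed that pattern beside the other in the members that could be read. No array is labelled as carrying the insertion, so the Zhx2 signal that it would leave is not known here. Zhx2 was measured at a similar level in all 6 livers, between 9.14 and 9.47 on the log2 scale, and the ratio of Balb/cBy to Balb/c was 1.09 (95% interval 0.925 to 1.29). Afp and Gpc3 lay in all 6 livers within the range of signal given by olfactory receptor genes, which are not expected in liver. At that signal a low level of either cannot be told from none. H19 had no value under the rule used, and the probe set it shares with another symbol is described at the end. Of the 6 measured members 0 passed an adjusted p of 0.05 in limma, where 0% of all genes did, and 0 reached an unadjusted p under 0.05, where 2.59% of all genes did with higher and 1.16% with lower levels in Balb/cBy.

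Zhx2 is thought to act on Afp through its proximal promoter. The bases before the annotated starts of Afp and Gpc3 are shown because these repressed genes, unlike H19 and Lpl, had a promoter sequence in the reference used. Both come from RefSeq on GRCm38.p6 and were matched by symbol, as could be done for 3 of the 7 members. Shown are the 250 bases upstream of the start, at chr5:90490464-90490713 on the plus strand for Afp and chrX:52613975-52614224 on the minus strand for Gpc3. Capitals mark 4 motifs searched on both strands, namely TATAAA of a TATA box, the half-sites GTTAAT and also GTTAAC of the liver factor HNF1, and CCGCCC of a GC box.
Afp: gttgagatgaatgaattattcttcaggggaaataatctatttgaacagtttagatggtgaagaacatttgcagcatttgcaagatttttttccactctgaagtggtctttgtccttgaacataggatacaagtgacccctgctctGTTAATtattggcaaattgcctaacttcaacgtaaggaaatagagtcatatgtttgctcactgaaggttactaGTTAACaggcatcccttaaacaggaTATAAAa
Gpc3: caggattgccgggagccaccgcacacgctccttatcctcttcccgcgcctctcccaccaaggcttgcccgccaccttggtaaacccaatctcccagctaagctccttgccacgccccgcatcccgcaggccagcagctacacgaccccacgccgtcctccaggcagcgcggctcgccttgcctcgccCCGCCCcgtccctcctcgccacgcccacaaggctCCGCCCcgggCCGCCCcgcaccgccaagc
The Afp window held GTTAAT from 105 to 100 bases before the start, GTTAAC from 32 to 27, and TATAAA from 7 to 2. Distances are counted from the annotated start, and whether transcription begins there in liver was not tested. Over 32851 promoter windows of this length, 6.43% held GTTAAT, 2.56% held GTTAAC and 12.4% held TATAAA. The Gpc3 window held CCGCCC at 3 places, from 63 to 58, 29 to 24 and 19 to 14 bases before the start, a motif found in 32.7% of windows. GC content was 36.0% in the Afp window and 71.6% in that of Gpc3, with a median of 52.4% over all windows. None of the 4 motifs overlapped another in either window, and these matches describe the letters only.

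The arrays carry no detection call, so the 1105 measured olfactory receptor genes served as a reference for signal without expression. Their mean levels had a median of 5.92, a 5th percentile of 4.0 and a 95th percentile of 8.02. Probe sets differ in how strongly they bind, so this range bounds what can be said of a single gene and gives no order among genes. Albumin, Alb, which hepatocytes make in large amounts, had a mean of 14.20 ± 0.023 (SD, n = 3) in Balb/c and of 14.17 ± 0.012 (SD, n = 3) in Balb/cBy. All 10 hepatocyte markers lay above the 95th percentile of the olfactory receptor genes. Of all 22180 genes tested, 11240 did, so a level above it does not by itself show expression. Medians of the arrays lay between 7.66 and 7.74, and the number of arrays limits the precision. Fewer cells of a type and less RNA per cell cannot be told apart in whole liver.

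**Figure D1:**
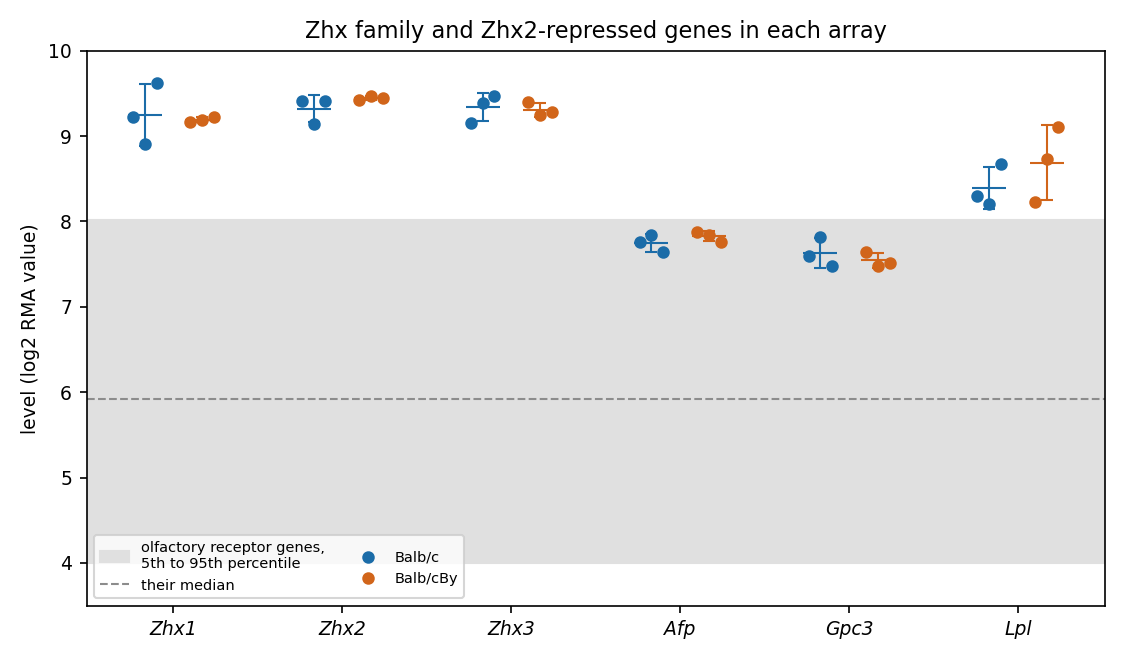
Level of each measured member on the log2 scale (vertical axis) in 3 Balb/c (blue) and 3 Balb/cBy (orange) arrays, with the mean and SD of each group. The grey band spans the 5th to 95th percentile of 1105 olfactory receptor genes (4.0 to 8.02) and the dashed line is their median (5.92). Zhx1, Zhx2, Zhx3 and Lpl lie above the band in all 6 arrays, and Afp and Gpc3 lie inside it.

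Zhx2 stood at 9.41, 9.14 and 9.41 in Balb/c replicates 1, 2 and 3, and at 9.42, 9.47 and 9.45 in Balb/cBy. All 6 values were above the 95th percentile of the olfactory receptor genes of the same array, and 0.181% of those receptors reached its mean level. Balb/c replicate 2 was the low array, the other 5 lay close together, and the groups were parted by a gap of 0.01. The Balb/c mean was 9.32 ± 0.16 and the Balb/cBy mean 9.45 ± 0.026 (SD, n = 3 for both). The difference, Balb/cBy minus Balb/c, was 0.13 on the log2 scale (SE 0.10, 95% interval -0.11 to 0.37, adjusted p = 0.999 in limma), and the exact permutation p (two-sided) was 0.1, the smallest that 3 against 3 can give. Without Balb/c replicate 2 the difference was 0.04. Among the 6 members Zhx2 was the 1 whose groups did not overlap, which held for 4.32% of all genes with Balb/cBy higher and 3.51% with Balb/cBy lower. The annotation does not say which exons the Zhx2 probe set reads, so a change in transcript form was not tested.

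Zhx1 and Zhx3, which can pair with Zhx2, were measured above the receptor range in all 6 arrays too. Zhx1 stood at 9.23, 8.90 and 9.62 in the Balb/c livers and at 9.16, 9.19 and 9.22 in the Balb/cBy livers. The Balb/cBy values fell inside the wider Balb/c range, and the difference was -0.06 (SE 0.17, 95% interval -0.45 to 0.33, adjusted p = 0.999 in limma). Zhx3 stood at 9.16, 9.39 and 9.47 in Balb/c and at 9.40, 9.24 and 9.28 in Balb/cBy. These values overlapped as well, with a difference of -0.03 (SE 0.11, 95% interval -0.29 to 0.22, adjusted p = 0.999 in limma). Without Balb/c replicate 3 both differences turned, to 0.13 for Zhx1 and 0.03 for Zhx3, and that of Zhx3 was 0.0012 without Balb/cBy replicate 2. Exact permutation p-values (two-sided) were 0.7 for Zhx1 and 0.9 for Zhx3.

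**Figure D2:**
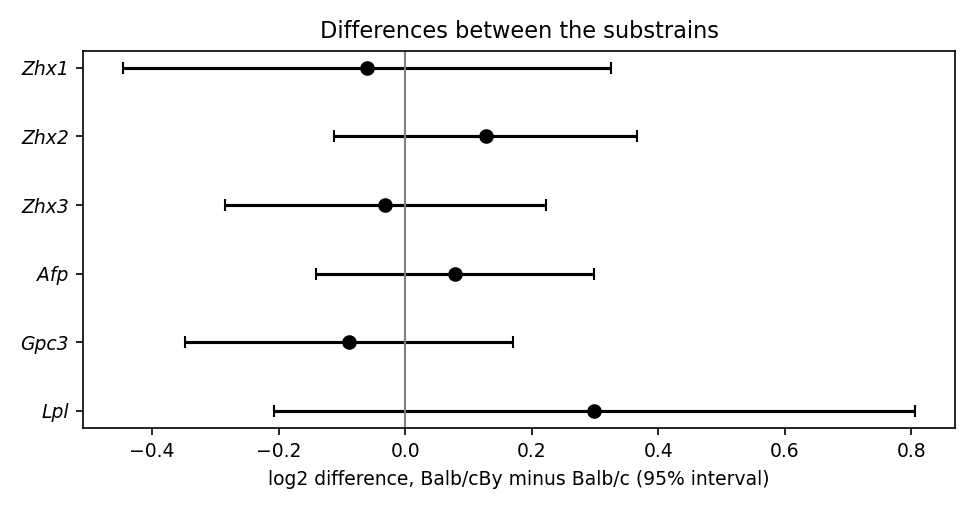
Difference of each measured member between the substrains (horizontal axis, log2 level in Balb/cBy minus Balb/c), with points for the estimate in limma and bars for its 95% interval. All 6 intervals include 0, and that of Lpl is the widest, from -0.21 to 0.81.

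Afp encodes alpha-fetoprotein, the main serum protein of the fetus and a relative of albumin. It stood at 7.76, 7.85 and 7.64 in Balb/c and at 7.88, 7.84 and 7.76 in Balb/cBy. The groups overlapped, 0 of 6 arrays had Afp above the 95th percentile of its olfactory receptor genes, and 7.87% of the receptors reached its mean level. The difference was 0.08 (SE 0.096, 95% interval -0.14 to 0.30, adjusted p = 0.999 in limma), a ratio of 1.06 with an interval from 0.907 to 1.23. Gpc3 encodes glypican 3, a cell surface proteoglycan of fetal liver and of liver tumours. It stood at 7.59, 7.82 and 7.48 in Balb/c and at 7.64, 7.48 and 7.51 in Balb/cBy. Here too 0 of 6 arrays passed the receptor range, and 10.7% of the receptors reached its mean level. The difference was -0.09 (SE 0.11, 95% interval -0.35 to 0.17, adjusted p = 0.999 in limma), and it was 0.0051 without Balb/c replicate 2. Exact permutation p-values (two-sided) were 0.4 for Afp and 0.6 for Gpc3. At this signal the arrays cannot tell a low level of either transcript from none, so a small difference in a silent gene was not detectable.

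**Figure D3:**
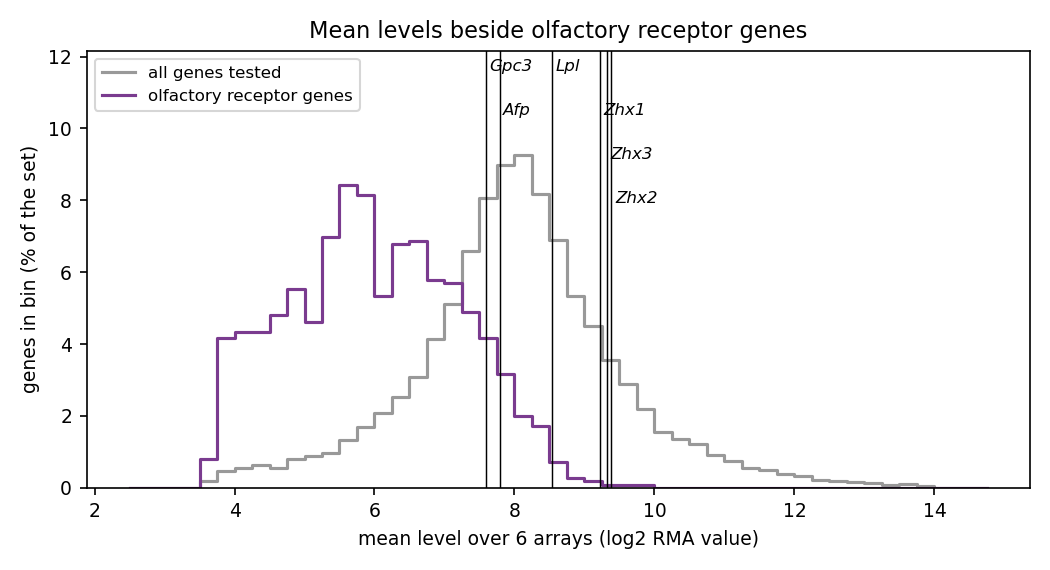
Share of genes (vertical axis, percent of the set in bins of log2 level) by mean level over the 6 arrays (horizontal axis) for all 22180 genes tested (grey) and for 1105 olfactory receptor genes (purple), with a line at the mean level of each measured member. The lines of Gpc3 (7.59) and Afp (7.79) cross the upper part of the receptor distribution, and those of Lpl (8.54), Zhx1 (9.22), Zhx3 (9.32) and Zhx2 (9.39) lie beyond its 95th percentile of 8.02.

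Lpl encodes lipoprotein lipase, which releases fatty acids from circulating lipoproteins. Adult hepatocytes make little of it, while macrophages and adipocytes make it as well. It stood at 8.29, 8.21 and 8.67 in Balb/c and at 8.23, 8.73 and 9.11 in Balb/cBy. Balb/cBy replicate 3 was the highest array, Balb/cBy replicate 1 lay among the Balb/c arrays, and all 6 values were above the receptor range. The difference was 0.30 (SE 0.22, 95% interval -0.21 to 0.81, adjusted p = 0.999 in limma), a ratio of 1.23 with an interval from 0.866 to 1.75, and the exact permutation p (two-sided) was 0.4. It was 0.09 without Balb/cBy replicate 3, the highest array, and 0.53 with replicate 1 of that group left out. A second Lpl probe set gave a lower signal, 6.91 ± 0.051 for Balb/c and 6.93 ± 0.092 for Balb/cBy (SD, n = 3 in both), with a difference of 0.02 (SE 0.094). This second probe set lay within the range of the olfactory receptor genes, of which 25% reached its mean level, and the 2 differences were not tested against each other.

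Markers of the other cells that make Lpl were read beside it. The log2 of the summed linear level of 9 adipocyte markers ranged from 11.64 to 12.02 in Balb/c and from 11.53 to 12.12 in Balb/cBy, and 6 of the 9 lay above the receptor range. Adipoq, which encodes adiponectin, and Lep, the gene for leptin, lay within the receptor range, while Plin1, a lipid droplet coat protein, lay above it. Adipoq differed by 0.29 (SE 0.19) and the glucose transporter Slc2a4 by -0.22 (SE 0.16), and 0 of the 9 reached an adjusted or unadjusted p of 0.05 in limma. The summed level of 14 macrophage markers ranged from 13.20 to 13.72 in Balb/c and from 13.59 to 13.85 in Balb/cBy, and 11 of the 14 lay above the receptor range. Of these markers 10 were higher and 4 lower, with a median difference of 0.17, against -0.00282 over all genes. The median of the markers was 0.04 without Balb/c replicate 3, or 0.32 when replicate 2 of that group was left out. At an unadjusted p under 0.05, 4 of 14 were higher and 0 lower, where 2.59% of all genes were higher and 1.16% lower. The lists here and below were chosen with earlier results of these data known, so such counts describe them and are no test. Gpnmb, a marker of lipid-laden macrophages, differed by 0.36 (SE 0.099) at levels within the receptor range. The tetraspanin Cd9 differed by 0.36 (SE 0.11), or by 0.12 with all its probe sets averaged. Adgre1, which encodes an adhesion receptor of macrophages, differed by -0.37 (SE 0.29), and the scavenger receptor Marco by -0.24 (SE 0.15). Stellate cell and fibroblast markers, at summed levels from 13.12 to 13.68 in Balb/c and from 13.46 to 13.91 in Balb/cBy, had a median difference of 0.23 (0.13 without Balb/c replicate 3, or 0.44 when replicate 1 of that group was left out). At that p 3 of 12 were higher, against the same 2.59% of all genes. Their smallest p-values were those of the matrix proteins Lum, at 0.53 (SE 0.12), and Dpt, at 0.56 (SE 0.14). Over the 6 arrays the Pearson r of Lpl with these summed levels was 0.81 for adipocyte, 0.77 for hepatocyte, 0.50 for stellate and 0.20 for macrophage markers (n = 6, as a description). The brightest markers weigh most in such a sum, and for adipocytes these were Fabp4, with a mean of 9.97, and Pparg, with 9.44. The part of any of these cells in the level of Lpl was not tested.

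Proteins that bind, fold, inhibit or resemble lipoprotein lipase numbered 20 with a value. Their median difference was 0.03 (0.01 without Balb/c replicate 3, or 0.08 when Balb/cBy replicate 1 was left out), and 0 passed an adjusted p of 0.05. At an unadjusted p under 0.05, 3 of 20 were higher and 0 lower, against 2.59% and 1.16% of all genes. This list too was chosen with earlier results of these data known, so the count is a description. Sel1l, an adaptor of endoplasmic reticulum degradation that helps lipoprotein lipase to mature, stood at 10.22, 10.25 and 10.37 in Balb/c and at 10.76, 10.76 and 10.69 in Balb/cBy. It differed by 0.46 (SE 0.090, adjusted p = 0.607 in limma). Angptl8, a secreted inhibitor of the lipase in the fed state, stood at 10.49, 10.06 and 10.36 in Balb/c and at 11.32, 11.73 and 10.76 in Balb/cBy. Its difference of 0.96 (SE 0.23, adjusted p = 0.999 in limma) was the largest of the 20. Apoc2, the apolipoprotein that activates the lipase, differed by 0.34 (SE 0.089), and Gpihbp1, its anchor on capillary walls, by 0.14 (SE 0.088). In these 4 genes all Balb/cBy arrays lay above all Balb/c arrays, as 4.32% of all genes did. The enzyme itself overlapped between groups, as given above.

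**Figure D4:**
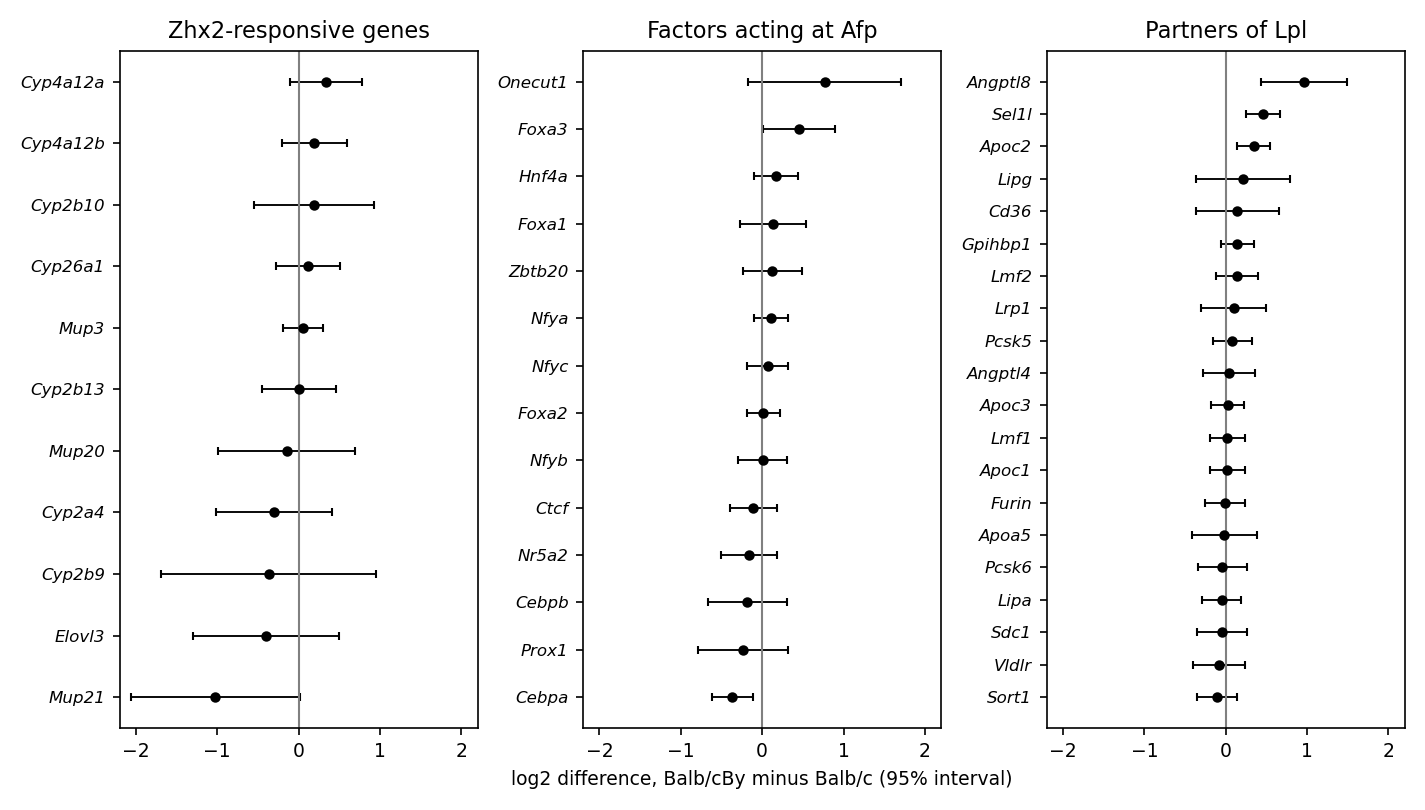
Difference between the substrains (horizontal axis, log2 level in Balb/cBy minus Balb/c, with 95% interval in limma) for 11 other genes that respond to Zhx2, 14 factors that act at Afp or the albumin locus, and 20 partners of Lpl. Mup21 (-1.02) and Angptl8 (0.96) lie farthest from 0, and no gene shown passed an adjusted p of 0.05.

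Other liver genes described as responding to Zhx2, mostly sex-biased cytochromes P450 and major urinary proteins, had a value for 11 of 12. Of these 6 were higher and 5 lower, with a median of 0.0022 (-0.15 without Balb/c replicate 2, or 0.06 when replicate 3 of that group was left out), 0 at an adjusted p of 0.05 and 0 at an unadjusted p of 0.05 in limma. Mup21, a major urinary protein, stood at 9.30, 9.20 and 10.99 in Balb/c and at 9.26, 8.82 and 8.34 in Balb/cBy. Balb/c replicate 3 was far above the rest, and the difference of -1.02 (SE 0.45) was -0.44 without it. Cyp4a12a, a P450 enzyme of male liver, differed by 0.34 (SE 0.19), or by 0.16 without Balb/c replicate 2. Elovl3, a fatty acid elongase, stood at 12.54, 12.51 and 11.95 in Balb/c and at 12.95, 11.34 and 11.51 in Balb/cBy. Cyp2a4, a steroid hydroxylase, stood at 11.77, 11.01 and 11.35 in Balb/c and at 10.36, 11.55 and 11.31 in Balb/cBy. In both genes Balb/cBy replicate 1 stood apart from the other Balb/cBy arrays, in opposite directions. Near-identical copies in the urinary protein and P450 families can share probes, so the values of single members are uncertain.

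Transcription factors known to act at Afp, H19 or the albumin locus had a value for 14 of 17, all above the receptor range. Of these 9 were higher and 5 lower, with a median difference of 0.04 (-0.05 without Balb/cBy replicate 2, or 0.09 when Balb/c replicate 3 was left out) and 0 past an adjusted p of 0.05. At an unadjusted p under 0.05, 1 of 14 was higher and 1 lower, against 2.59% and 1.16% of all genes. Cebpa, a factor of the mature hepatocyte, stood at 11.25, 11.30 and 11.48 in Balb/c and at 10.83, 11.01 and 11.10 in Balb/cBy, without overlap, a difference of -0.36 (SE 0.11, adjusted p = 0.999 in limma). Foxa3, a forkhead factor of the hepatocyte, differed by 0.45 (SE 0.19), with overlap. Zbtb20, which also represses Afp after birth, stood at 9.24, 9.34 and 9.81 in Balb/c and at 9.44, 9.72 and 9.59 in Balb/cBy, a difference of 0.12 (SE 0.16). It was 0.01 without Balb/c replicate 1, and 0.29 when replicate 3 of that group was left out. In the albumin gene family Afm, which encodes afamin, differed by -0.11 (SE 0.19), and Alb by -0.02 (SE 0.083). The difference of Afm was 0.08 without Balb/c replicate 3.

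Further genes of fetal liver, hepatoblasts and liver tumours had a value for 17 of 20. Above the receptor range lay 8 of the 17, and 11240 of all 22180 genes. Of these 17, 4 were higher and 13 lower, with a median of -0.05 (0.01 without Balb/c replicate 2), 0 at an adjusted p of 0.05 and 0 at an unadjusted p of 0.05 in limma. The smallest p-values were those of Cd24a, a surface marker of progenitor cells, at 0.25 (SE 0.17), and Prom1, another such marker, at 0.13 (SE 0.094). Igf2, the growth factor gene beside H19, stood at 8.09, 8.33 and 8.29 in Balb/c and at 8.15, 8.36 and 8.19 in Balb/cBy. These values overlapped throughout, and their mean lay just above the 95th percentile of the receptors. Dlk1, an imprinted gene of fetal liver, differed by -0.02 (SE 0.091).

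Imprinted genes co-regulated with H19 in growing tissue had 16 values, 8 higher and 8 lower, with a median of 0.01 (0.05 without Balb/cBy replicate 3) and 0 past an adjusted p of 0.05. At an unadjusted p under 0.05, 3 of 16 were higher and 0 lower, against 2.59% and 1.16% of all genes. As with the other lists, this count is a description. Decorin, Dcn, a matrix proteoglycan of stellate cells, differed by 0.48 (SE 0.14), beside the higher median of the stellate markers given above. Grb10, an adaptor of growth factor receptors, differed by 0.33 (SE 0.12) at levels within the receptor range. The other glypicans and partners of Gpc3 had 10 values with a median of -0.07 (0.04 without Balb/cBy replicate 1), 0 at an adjusted p of 0.05 and 0 at an unadjusted p of 0.05 in limma. Fzd4, a Wnt receptor, differed by -0.23 (SE 0.13), and Gpc5, another glypican, by -0.15 (SE 0.10).

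Fetal genes can return in dividing or ductal cells, so markers of these were read too. Cell cycle genes had 11 values, 2 higher and 9 lower, with a median of -0.10 (-0.04 without Balb/cBy replicate 3), and 4 lay above the receptor range. Ccnb2, a cyclin of mitosis, differed by -0.23 (SE 0.13), and Mki67, the Ki-67 antigen, by -0.18 (SE 0.11). Bile duct and progenitor markers had 8 values with a median of -0.06 (-0.01 without Balb/cBy replicate 2), and 1 lay above the receptor range. The mucin Muc1 differed by 0.18 (SE 0.099) and the chloride channel Cftr by -0.16 (SE 0.11). Endothelial markers had a median of 0.05 over 10 genes (-0.04 without Balb/c replicate 3), with the Fc receptor Fcgr2b at -0.30 (SE 0.15) and the VEGF receptor Kdr at -0.23 (SE 0.13), or -0.085 without Balb/cBy replicate 1. Hepatocyte markers had a median of -0.03 over 10 genes (0.02 without Balb/cBy replicate 1), with the tryptophan dioxygenase Tdo2 at -0.37 (SE 0.21), or -0.14 without Balb/c replicate 3. In these 4 lists 0 genes passed an adjusted p of 0.05 in limma, and 1 hepatocyte marker, Serpina1a, was higher at an unadjusted p under 0.05, by 0.55 (SE 0.20) and by 0.32 without Balb/cBy replicate 2.

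The genes whose levels over the 6 arrays were most like those of Zhx2, among 10498 genes with a proper symbol and a mean at or above the median of all genes, were Cyp2c68, Ociad1 and Taf9, with Pearson r of 0.99, 0.99 and 0.99 and Spearman rho of 0.89, 0.94 and 0.94. For Afp they were Pdcd1lg2, Nkx6-3 and Orm3, with r of 0.99, 0.99 and 0.98 and rho of 1, 0.94 and 1. An r above 0.95 was reached by 59 genes for Zhx2 and by 21 for Afp. These correlations describe 6 arrays that share their normalization. The Zhx2 values lay close together apart from Balb/c replicate 2, so a high r with Zhx2 can rest largely on that array. Among all pairs of members, the largest absolute r were those of Zhx2 with Gpc3, -0.90 (rho -0.71), and Zhx1 with Afp, -0.85 (rho -0.94). Zhx2 and Afp had an r of -0.24 (rho 0.09). All are over 6 arrays, with Afp and Gpc3 within the receptor range. Balb/c replicate 2 held both the lowest Zhx2 (9.14) and the highest Gpc3 (7.82). Balb/c replicate 3 held the highest Zhx1 (9.62) and the lowest Afp (7.64). The r without these arrays was not computed.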

How the data were processed

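The authors deposited log2 values per probe set made with RMA, per the submitters' processing notes. RMA corrects background, quantile normalizes and summarizes probes, which can compress differences of dim genes. Its version, any filter and the build are, in the sources used here, not given. On 6 arrays the table held 41345 probe sets, of which 23521 had 1 symbol, 1814 several and 16010 none here. All 164 listed genes with a value kept their symbol in RefSeq by gene identifier.

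Balb/cBy minus Balb/c was fitted over 22180 genes with lmFit and eBayes (limma 3.58.1, R 4.3.3), without covariates or filter, with Benjamini-Hochberg adjustment over all genes. Intervals are moderated. The code was tested on simulated data. Members and 14 gene lists (181 entries, 164 measured) were chosen with earlier results of these data known. From each list the 2 genes with the smallest p were to be named, and for Zhx2 and Afp the 3 most correlated genes with a proper symbol. Zbtb20, Apoc2, Gpihbp1, Igf2, Dlk1, Elovl3, Cyp2a4, Lep, Plin1, Fabp4, Pparg, Adgre1 and Marco were added to these once their values had been seen. Alternatives were a replicate block, recentring, repeated quantile normalization, 2 filters, averaged probe sets, other variance models, array weights and leaving out each array.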

Additional observations from a re-analysis of the deposited data

How the results depend on the processing

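No member passed under any of the 15 alternatives. The replicate block, the filters and the variance models cannot change a difference, nor can averaging for a gene with a single probe set. Under the rest Zhx2, Afp and Lpl kept their direction. Without single arrays Zhx2 ranged from 0.04 to 0.17, Afp from 0.02 to 0.13 and Lpl from 0.09 to 0.53. The other alternatives gave 0.07 to 0.14, 0.04 to 0.10 and 0.16 to 0.58. Zhx1 ranged from -0.23 to 0.13 without single arrays, Zhx3 from -0.12 to 0.035 and Gpc3 from -0.16 to 0.0051, and Zhx3 was 0.0195 with array weights. Gpc3 has no value with genes under the median level left out. Array weights called 12 genes of 22180, and leaving out single arrays 0 to 3 (2 genes when Balb/c replicate 3 was left out and 3 when Balb/cBy replicate 1 was), none of them members. For genes of the lists, alternatives added after seeing the data turned Igf2 (-0.0027) to 0.0143 by recentring and 0.0438 by array weights, and Dlk1 to 0.000303 by recentring. Without single arrays Igf2 ranged from -0.0774 to 0.0431, Dlk1 from -0.0695 to 0.0175, Afm from -0.284 to 0.0836 and Cyp2a4 from -0.543 to 0.0537. Of 37 genes named from the lists, 25 had a difference that leaving out some array moved by over 1.5 times. None of the 37 passed an adjusted p of 0.05 with all arrays. Lep, Plin1, Fabp4 and Pparg were not among the 37. Replicates with the same number deviated in opposite directions (correlations -0.32, -0.20 and -0.23), and no array correlated best with its own number. The replicate block therefore rests on a shared number only. Because the groups share the same numbers, it cannot change a difference (Zhx1 -0.06, Zhx2 0.13, Zhx3 -0.03, Afp 0.08, Gpc3 -0.09, Lpl 0.30), only its SE. The SE fell for Zhx1 (0.17 to 0.16) and Lpl (0.22 to 0.15). It rose for Zhx2 (0.10 to 0.13), Zhx3 (0.11 to 0.14), Afp (0.096 to 0.12) and Gpc3 (0.11 to 0.13), and the block called 0 genes. Dim probe sets limit what can be said of Afp and Gpc3.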

Other observations

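One probe set is listed under both H19 and Mir675, the microRNA that lies within H19, and the annotation does not assign it to either alone. It read 6.75, 7.17 and 6.76 in the Balb/c arrays and 7.16, 6.99 and 6.75 in the Balb/cBy arrays. The groups overlapped, and 24.8% of the olfactory receptor genes reached its mean level. A further probe set listed under Plcg1 and Zhx3 read 7.66 ± 0.081 for Balb/c and 7.65 ± 0.14 for Balb/cBy (SD, n = 3 in both).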
